A study of Homo sapiens with 6 samples.

Results

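Glutathione S-transferases join the tripeptide glutathione to reactive, fat-soluble or oxidised molecules, which can then be exported from the cell. The cytosolic enzymes fall into classes named by Greek letters, the kappa enzyme sits in mitochondria and peroxisomes, and the MAPEG proteins are a separate, membrane-bound family with the same reaction. Several of these genes are known targets of NRF2, the transcription factor of the antioxidant response named in the study's title. The 10 genes described here were chosen by symbol among the 19386 genes of the deposited table, with earlier results of these data known. They are the mu-class genes GSTM2, GSTM3 and GSTM4, GSTO1 (omega), GSTP1 (pi), GSTZ1 (zeta), GSTK1 (kappa), and the microsomal MAPEG genes MGST1, MGST2 and MGST3. All 10 were found and all 10 passed the filter on low counts.

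The cells were AC16, a human cell line of wild-type genotype labelled as cardiomyocytes, made by fusing cells of adult ventricle with virus-transformed fibroblasts. Messenger RNA was sequenced in 3 libraries of untreated control cells and 3 libraries of cells kept in 26 mM potassium chloride (KCl), an agent that depolarizes the membrane, all collected at 16 h. Whether replicates came from separate cultures is not stated, and the spread behind each p-value may thus be technical.

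Libraries held 18601977 to 19286588 estimated reads, and chi-square values per gene between replicates were 2.98 to 4.37, above the value near 1 that sampling gives. Of 14 cardiomyocyte markers, 1 (GATA4) had a mean of at least 1 TPM (a level scaled for gene length and library size) in control, and TNNT2, MYL7, MYBPC3 and NKX2-5 were at 0 in all 6 libraries. All 10 fibroblast markers were above that level, with a summed level of 8610 to 8905 TPM in control and 9375 to 9702 TPM in KCl, and 9 of the 10 were called higher in KCl. Summed levels also differed without overlap for 5 epithelial markers (389 to 399 TPM in control, 552 to 581 TPM in KCl), 5 endothelial markers (4.31 to 5.02 TPM in control, 5.43 to 5.84 TPM in KCl) and 4 leukocyte markers (171 to 185 TPM in control, 124 to 134 TPM in KCl). Each of these sums was mostly 1 gene, namely KRT18 (called higher), TEK (not passed) and CD68 (called lower). Among the others CDH1, PECAM1 and CD14 were called higher, and KRT8, KRT19 and PTPRC did not pass. Their part in the results below was not tested, and in bulk RNA fewer cells of a type and less RNA per cell cannot be told apart. Over all genes, 38% of the 13044 genes tested were called changed (edgeR quasi-likelihood test, Benjamini-Hochberg adjusted p under 0.05), 20.1% as higher and 18% as lower in KCl. The higher share of the calls was 52.8%, but 41.1% by limma on log2(TPM + 1) and 33.3% on log2(FPKM + 1).

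The question put to the data is which of the transferase genes differed between KCl and control cells. MGST1 rose 1.16-fold, GSTZ1 fell to 0.782 of its control level and GSTK1 to 0.876, and the other 7 members did not pass the test. That is 3 of 10 members called, or 30%, beside the 38% of all genes, and with 10 members these shares cannot be told apart. The count also moved with the setting. By limma-voom 1 member was higher and 3 were lower, beside 2591 higher and 2287 lower of 13044 genes. With no filter on low counts it was again 1 higher and 3 lower, beside 2609 higher and 2385 lower of 18618 genes. The log2 fold changes were positive for 5 members and negative for 5, from -0.35 to 0.22, with a median of -0.03 where the median over all genes tested was -0.005. At 5 of the 10 members control and KCl values were fully separate, beside non-overlapping groups at 47.8% of all genes. Called genes over the whole table had a median absolute log2 fold change of 0.31, which GSTZ1 exceeded and MGST1 and GSTK1 did not.

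**Figure D1:**
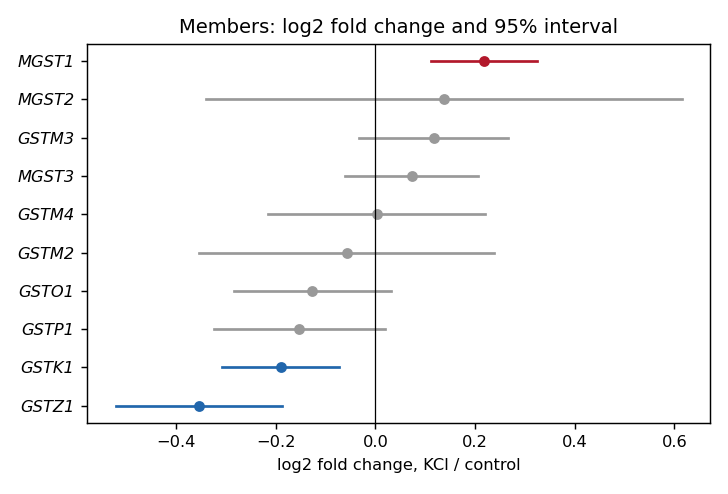
Log2 fold change of each of the 10 genes, KCl over control (x axis), with the 95% interval of the edgeR fit as a line. Red marks the gene called higher (MGST1), blue the genes called lower (GSTK1 and GSTZ1) and grey the 7 that did not pass.

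In control cells the levels spanned a wide range, from GSTP1 at 552 ± 6.12 TPM to MGST2 at 6.50 ± 1.06 TPM (mean ± SD, n = 3, as in all values below). Between them stood MGST1 at 182 ± 8.51 TPM, GSTK1 at 139 ± 2.84 TPM, GSTO1 at 103 ± 10.6 TPM, MGST3 at 102 ± 6.41 TPM and GSTZ1 at 44.1 ± 1.36 TPM. The mu-class genes were low, with GSTM4 at 19.95 ± 2.76 TPM, GSTM3 at 13.8 ± 0.568 TPM and GSTM2 at 12.4 ± 2.16 TPM. In that order the ranges of neighbours overlapped for GSTO1 and MGST3 and for GSTM3 and GSTM2, and for no other neighbours. In KCl cells MGST3 stood above GSTO1, and the only neighbours whose ranges overlapped were GSTK1 and MGST3. GSTP1 alone made up 47.0 ± 0.518% of the summed TPM of the 10 genes in control and 44.1 ± 3.24% in KCl. The summed level was 1161, 1197 and 1167 TPM in control replicates 1 to 3 and 1126, 1034 and 1113 TPM in KCl. Without GSTP1 it was 623 ± 15.4 TPM in control and 609 ± 10.4 TPM in KCl. The share of the 3 MAPEG genes was 24.8 ± 0.856% in control and 29.4 ± 1.98% in KCl, and the groups did not overlap. Of these 3 genes MGST1 alone was called. A share also depends on the other genes, and the highest MAPEG share (31.7%) was in KCl replicate 2, where GSTP1 was lowest. These sums and shares are given as a description. For the sums, TPM lacks the further scaling between libraries that was used in the tests. The median log2 fold change over all genes tested was -0.037 on log2(TPM + 1), beside -0.005 in the edgeR fit. Small differences in summed TPM are thus not read as changes.

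**Figure D2:**
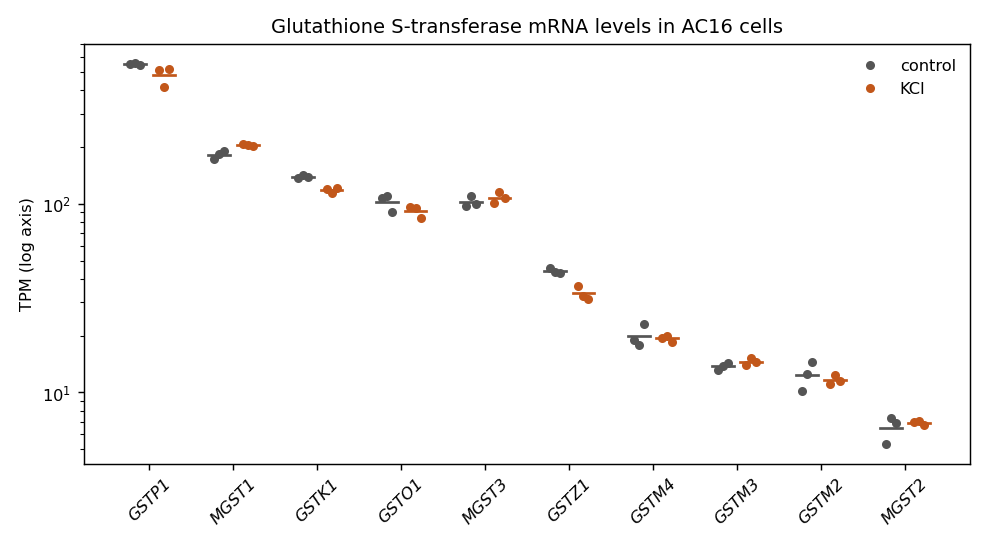
Level of the 10 genes in TPM on a log axis, ordered by the control mean, with 1 point per library and a bar at the mean of each group (n = 3). GSTP1 is highest in every library, at 417 to 558 TPM, and MGST2 is lowest, at 5.30 to 7.32 TPM.

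GSTP1 codes for the pi-class enzyme, which also binds and restrains the stress kinase JNK. The gene lies on chromosome 11 from 67583595 to 67586656 (GRCh38, plus strand). Its RefSeq promoter holds the core of the antioxidant response element, the DNA motif bound by NRF2 with small MAF proteins, spelled TGACNNNGC and searched on both strands of the 250 bases before the gene start. The 30 bases around each match in the family are shown because the study's title names NRF2, with the motif in capitals.
GSTP1, chr11:67583736-67583765: gccggcgccgTGACTCAGCactggggcgga
GSTO1, chr10:104254656-104254685: ggcggagggaTGACTGAGCatttataactt
GSTO1, chr10:104254721-104254750: cgagatgcttTGACACAGCcccttaagatg
All are on the plus strand of RefSeq's GRCh38.p14, and the motifs begin 66, 226 and 161 bases before the RefSeq start. The GSTP1 match and the second GSTO1 match each lie within 2 annotated exons of their own gene, and the first GSTO1 match lies in none. Of 35116 promoters of the same length, 3830 (10.9%) held the motif. Among the 11 promoter entries of the members, which cover 9 genes, 2 held it, those of GSTP1 and GSTO1. The GSTP1 match also contains the AP-1 motif TGANTCA, which 6.57% of the promoters held. A match is a sequence in a window and does not show that a factor binds there.

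GSTP1 had a normalised read count of 226, 231 and 221 CPM (counts scaled to a common library size, with TMM factors) in control replicates 1 to 3 and 218, 174 and 217 CPM in KCl replicates 1 to 3. All KCl libraries were below all control libraries, but KCl replicates 1 and 3 only slightly, while KCl replicate 2 stood well below every other library. The log2 fold change was -0.15 ± 0.08 (SE), with a 95% interval of -0.32 to 0.02, and did not pass (edgeR quasi-likelihood adjusted p = 0.149). With 3232 to 4550 reads a library, counting alone would give a coefficient of variation of 1.63% among the KCl libraries, and 12.5% was observed. Without KCl replicate 2 the log2 fold change was -0.05 (edgeR adjusted p = 0.383), and without KCl replicate 1 it was -0.21 and passed (edgeR adjusted p = 0.0386). GSTP1 also passed as lower with no filter on low counts (edgeR adjusted p = 0.00307), by limma-voom (adjusted p = 0.0498) and by limma on log2(TPM + 1) (adjusted p = 0.0413), with an adjusted p between 0.00307 and 1 across the alternatives.

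GSTO1, the other gene with the motif, codes for the omega-class enzyme, which has a cysteine in its active site and reduces dehydroascorbate (chromosome 10, 104235356 to 104267459, plus strand). It had 46.4, 47.8 and 38.5 CPM in control and 43.0, 41.6 and 37.0 CPM in KCl. The groups overlapped, since control replicate 3 was below KCl replicates 1 and 2. The log2 fold change was -0.13 ± 0.08, with an interval of -0.28 to 0.03, and did not pass (edgeR adjusted p = 0.202). Without control replicate 3 it was -0.22 and passed (edgeR adjusted p = 0.0216), whereas without control replicate 2 it was -0.070 (edgeR adjusted p = 0.564) and without KCl replicate 3 it was -0.065 (edgeR adjusted p = 0.587), with an adjusted p between 0.0216 and 1 across the alternatives.

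GSTZ1 had the largest log2 fold change in size among the 10 members. It codes for the zeta-class enzyme, also known as maleylacetoacetate isomerase, which acts in the breakdown of tyrosine. The gene lies on chromosome 14 from 77320884 to 77331597 on the plus strand, and its annotation overlaps that of POMT2 on the opposite strand. Its normalised read count was 26.9, 25.9 and 25.3 CPM in control and 22.5, 19.4 and 19.2 CPM in KCl. Every KCl library was below every control library. The log2 fold change was -0.35 ± 0.08 (edgeR adjusted p = 0.00115), with an interval of -0.52 to -0.19, and 78.9% of the genes tested had a smaller absolute change. It passed with any single library left out (edgeR adjusted p 0.000632 to 0.0111), but not against a fold change of 1.2 (glmTreat adjusted p = 0.289). In 3 of the 6 libraries its estimated count was not a whole number. None of its 100-base stretches of coding transcript occurs, in the same direction, in a transcript of another annotated gene. The opposite direction, that of the overlap with POMT2, was not searched.

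GSTK1 codes for the kappa-class enzyme of mitochondria and peroxisomes (chromosome 7, 143244093 to 143270854, plus strand). It had 62.6, 66.3 and 63.5 CPM in control and 57.7, 53.2 and 57.7 CPM in KCl, again with every KCl library below every control library. The log2 fold change was -0.19 ± 0.06, with an interval of -0.31 to -0.07 (edgeR adjusted p = 0.00971). KCl replicate 2 was the lowest here as it was for GSTP1, and without it the call was lost, with the log2 fold change at -0.15 (edgeR adjusted p = 0.0552, in a range of 0.00126 to 1 over the alternatives). An antisense gene, AC073342.1, overlaps GSTK1, and whether the counting used the strand is not given in the sources used here.

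**Figure D3:**
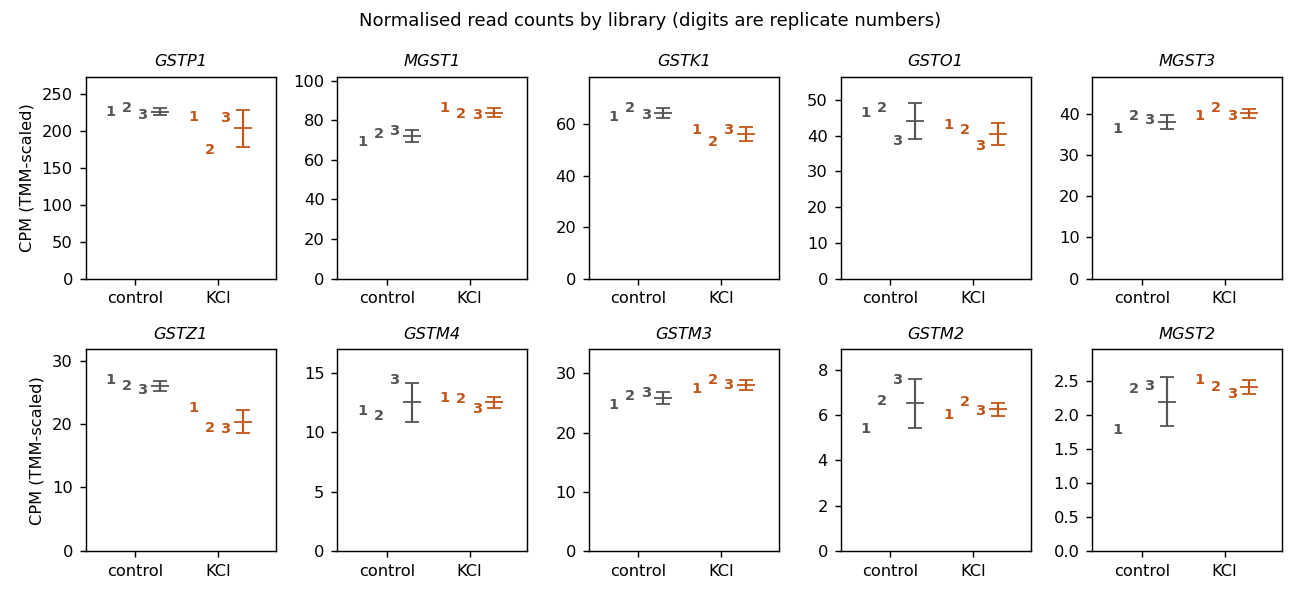
Normalised read count (CPM, TMM-scaled, axis from 0) of each gene in each library, with digits for the replicate number and the mean ± SD of each group (n = 3) beside them. MGST1 libraries are higher in KCl and GSTK1 and GSTZ1 libraries lower without overlap, and GSTP1 in KCl replicate 2 stands at 174 CPM against 217 to 231 CPM in the others.

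MGST1 was the only member called higher. It codes for a membrane enzyme of the endoplasmic reticulum and the outer mitochondrial membrane that conjugates glutathione and reduces lipid peroxides. The gene spans 16347142 to 16609259 on chromosome 12 (plus strand), a span that also holds or overlaps LMO3 and SUPT16HP1 on the opposite strand and AC007552.1 and AC007552.2 on the same strand. It had 68.7, 73.1 and 74.5 CPM in control and 86.2, 82.9 and 82.5 CPM in KCl. Each KCl library was above each control library. The log2 fold change was 0.22 ± 0.05, with an interval of 0.11 to 0.32 (edgeR adjusted p = 0.00162), and 61.2% of the genes tested had a smaller absolute change. The call held without any single library (edgeR adjusted p 0.00217 to 0.0228), and was lost against a fold change of 1.2 (glmTreat adjusted p = 1). The RefSeq table gives MGST1 3 promoter windows, and the motif TGACNNNGC was in none of them. The window chr12:16347395-16347644, 1 of these 3, is shown for the member that rose. No base is in capitals because neither motif was found in it. The window lies within the gene span given above.
MGST1: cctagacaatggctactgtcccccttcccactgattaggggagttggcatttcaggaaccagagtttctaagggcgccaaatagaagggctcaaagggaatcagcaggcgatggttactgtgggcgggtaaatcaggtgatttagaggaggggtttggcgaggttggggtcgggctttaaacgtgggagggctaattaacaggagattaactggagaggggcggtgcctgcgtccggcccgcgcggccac
It holds no annotated exon (250 bases, plus strand, GRCh38.p14). Of its bases, 56.4% are G or C, beside 66.0% and 37.6% in the other MGST1 windows and a median of 58.0% over all promoters.

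The other microsomal genes did not pass. MGST3, whose enzyme has glutathione peroxidase activity (chromosome 1, 165630861 to 165661796), had 36.3, 39.6 and 38.6 CPM in control and 39.5, 41.5 and 39.4 CPM in KCl. The groups overlapped, and the log2 fold change was 0.07 ± 0.06, with an interval of -0.06 to 0.21 (edgeR adjusted p = 0.399). MGST2, whose enzyme can make leukotriene C4 (chromosome 4, 139665768 to 139740745), had 1.78, 2.39 and 2.42 CPM in control and 2.52, 2.42 and 2.31 CPM in KCl. Control replicate 1 was low and the other 5 libraries lay close together. With 35 to 47 reads a library, counting alone gives a coefficient of variation of 15.3% in control, and the log2 fold change of 0.14 ± 0.23 had a wide interval of -0.34 to 0.62 (edgeR adjusted p = 0.671). That interval includes both no change and a rise as large as that of MGST1, and without control replicate 1 the log2 fold change was 0.0049.

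The mu-class genes form a cluster with partly overlapping annotations on chromosome 1, with GSTM4 (109656081 to 109674836), GSTM2 (109668022 to 109709551), GSTM1 and GSTM5 on the plus strand and GSTM3 (109733932 to 109741038) on the minus strand, inside the span of GSTM5. The estimated counts of GSTM2, GSTM3 and GSTM4 were not whole numbers in any library, as arises when reads that match several genes or transcripts are shared out. Of the 100-base stretches in GSTM2's coding transcripts, 30.9% also occur, in the same direction, in transcripts of other genes (GSTM1 and GSTM4). The share was 7.77% for GSTM4 and 0% for GSTM3. The coding sequences of GSTM2 and GSTM4 were identical at 86.5% of 638 aligned bases, and those of GSTM2 and GSTM3 at 70.0% of 657. The longest run of identical bases in the aligned coding sequences of GSTM2 and GSTM4, 78 bases, is shown as an example of sequence that does not tell these genes apart, and capitals in GSTM3 mark the 13 bases that differ.
GSTM2: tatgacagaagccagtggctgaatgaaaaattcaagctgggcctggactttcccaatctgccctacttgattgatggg
GSTM4: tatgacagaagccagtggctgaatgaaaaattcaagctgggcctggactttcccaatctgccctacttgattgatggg
GSTM3: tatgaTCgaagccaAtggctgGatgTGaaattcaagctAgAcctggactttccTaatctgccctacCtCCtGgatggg
The stretch covers coding bases 121 to 198 of GSTM2 and GSTM4 and 133 to 210 of GSTM3, from GENCODE release 29. The levels of GSTM2 and GSTM4 are uncertain because parts of their transcripts are shared with other genes. The shared 100-base stretches are longer than this run, so the run is only an example. Why the counts of GSTM3 were not whole was not tested.

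GSTM3 had 24.7, 26.2 and 26.7 CPM in control and 27.3, 28.9 and 28.0 CPM in KCl. Although the KCl libraries were all above the control libraries, the log2 fold change of 0.12 ± 0.07, with an interval of -0.03 to 0.27, did not pass (edgeR adjusted p = 0.213). GSTM2 had 5.39, 6.60 and 7.53 CPM in control and 5.99, 6.57 and 6.18 CPM in KCl, so that the KCl values lay within the control range. Its log2 fold change was -0.057 ± 0.14, with an interval of -0.35 to 0.24 (edgeR adjusted p = 0.783), and turned to 0.056 without control replicate 3. GSTM4 had 11.8, 11.4 and 14.4 CPM in control and 12.8, 12.8 and 11.99 CPM in KCl, again within the control range. Its log2 fold change was 0.0028 ± 0.11, with an interval of -0.21 to 0.22 (edgeR adjusted p = 0.987), and its sign changed under 8 of 17 alternatives. Control replicate 3 was the highest library for both GSTM2 and GSTM4 and the lowest control library for GSTO1.

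**Figure D4:**
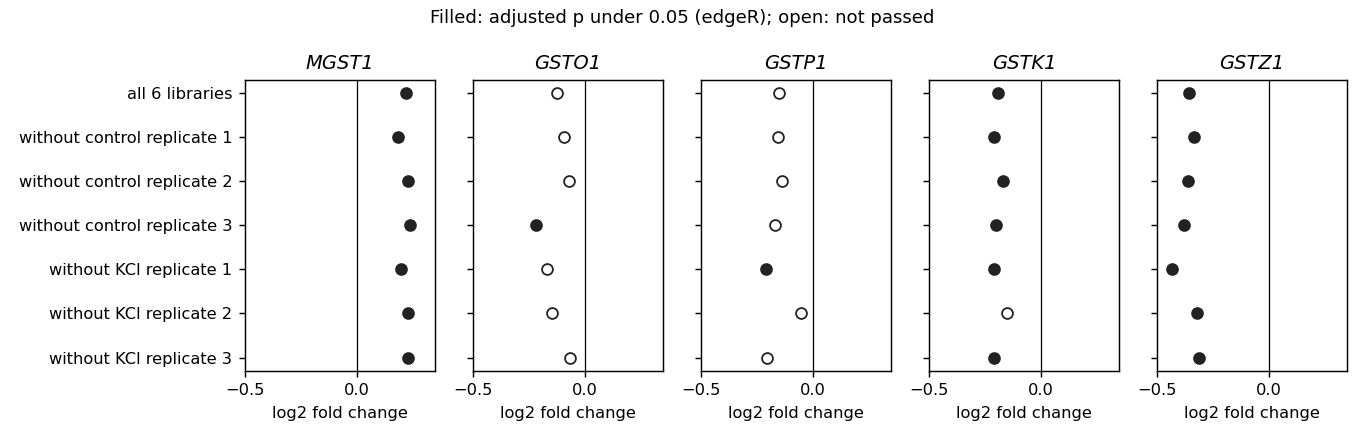
Log2 fold change (x axis) of 5 genes with all 6 libraries and with each library left out in turn, filled where the edgeR adjusted p was under 0.05. MGST1 and GSTZ1 are filled in every row, GSTK1 opens without KCl replicate 2, and GSTO1 and GSTP1 fill in 1 row each.

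The genes whose centred log2 CPM over the 6 libraries lay closest to that of MGST1, among 11751 genes, were TIMM17A, DDX20 and TRIM38, with a root mean square difference of 0.021, 0.023 and 0.026 on the log2 scale. Closest to GSTZ1 were NMI, PI4K2B and AASDHPPT, at 0.034, 0.039 and 0.041. With 6 libraries in 2 groups this likeness is a description only.

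Other genes of the family ranged from no reads to the level of the lower members, and GSTT2B, at 31.4 ± 3.01 TPM in control, was the highest of those tested. Of 17 further genes listed, 14 were found by symbol, 7 of these passed the filter on low counts, and 0 of the 7 were called in either direction (edgeR), beside 38% of all genes. An unadjusted p under 0.05 was reached by 2 of the 7, beside 6015 of the 13044 genes tested. DESeq2 also called 0, and limma-voom called 1 lower. Those at an unadjusted p under 0.05 were PTGES, a MAPEG relative that makes prostaglandin E2 (0.40 ± 0.16, edgeR adjusted p = 0.0529), and ALOX5AP, the 5-lipoxygenase activating protein of the same family (-1.07 ± 0.48, edgeR adjusted p = 0.0792, on 61 reads in all), the latter named after its value was seen. PTGES went from 4.17, 4.87 and 3.58 CPM in control to 5.24, 5.33 and 6.13 CPM in KCl, without overlap, and passed without control replicate 2 at 0.52. GSTA4, an alpha-class gene for an enzyme that conjugates 4-hydroxynonenal, averaged 7.23 ± 0.571 CPM in control cells against 6.25 ± 0.385 CPM with KCl, a difference that did not pass (-0.21 ± 0.13, edgeR adjusted p = 0.219). GSTT1 (-0.10 ± 0.20, edgeR adjusted p = 0.728) and GSTCD (0.02 ± 0.08, edgeR adjusted p = 0.836) did not pass either. GSTM1 had 0 reads in every library, which allows up to 0.152 to 0.162 CPM (3 reads a library, a 95% limit for counting error only). GSTM5 had 6 reads over all libraries and GSTA1 had 7. GSTT2, also below the filter and named after its values were seen, had estimated counts of 6.46, 0 and 0 in control and 1.76, 58.85 and 49.49 in KCl, so that KCl replicates 2 and 3 stood apart. Its near copy GSTT2B was lowest in those libraries, at 11.1 and 13.1 CPM against 13.7 to 16.6 CPM in the others, and both are uncertain because reads may be split between them.

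Genes that supply and handle glutathione were called in both directions. Of 22 genes tested out of 23 listed, 4 were higher, 7 lower and 11 did not pass. Thus 50% were called, beside 38% of all genes, and the median log2 fold change was -0.07. The higher genes included those for the cystine transporter SLC7A11 (0.67 ± 0.05) and the glutamate-cysteine ligase modifier subunit GCLM (0.36 ± 0.06). On the lower side, LAP3, a leucine aminopeptidase gene whose enzyme can split cysteinylglycine, went from 68.6, 66.4 and 61.2 CPM in control to 49.0, 47.2 and 44.5 CPM in KCl, falling by 0.48 ± 0.06 on the log2 scale (edgeR adjusted p = 7.07e-07). The gene for the glutathione-binding protein LANCL1 went from 79.5, 79.5 and 80.2 CPM to 58.4, 64.2 and 59.5 CPM, which was -0.39 ± 0.05 (edgeR adjusted p = 2.15e-06). Neither gene had overlapping groups.

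GSS, which codes for glutathione synthetase, the enzyme of the last step of synthesis, went from 109, 106 and 107 CPM in control to 85.8, 91.1 and 85.9 CPM in KCl (-0.29 ± 0.05, edgeR adjusted p = 2.52e-05). GCLC, the catalytic subunit gene of the first step, was lower as well (-0.24 ± 0.08, edgeR adjusted p = 0.0143), a call lost without control replicate 2 (edgeR adjusted p = 0.0506) or KCl replicate 3 (edgeR adjusted p = 0.103), in a range of 0.00846 to 1 over the alternatives. GSR, the glutathione reductase gene, averaged 42.9 ± 0.659 CPM in control cells against 44.9 ± 0.453 CPM with KCl, which did not pass (0.07 ± 0.06, edgeR adjusted p = 0.413). The genes for the cystine transporter and the ligase modifier rose, and those of both other synthesis proteins fell.

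Of 9 tested genes that export conjugates or process them afterwards, out of 11 listed, 3 were higher, 1 was lower and 5 did not pass. That is 44.4% called, near the 38% of all genes, with a median log2 fold change of -0.01. ABCC3, an efflux pump of organic anions and glutathione or glucuronide conjugates, went from 8.65, 10.3 and 9.74 CPM in control to 20.2, 21.6 and 17.5 CPM in KCl, a 2.07-fold rise (log2 fold change 1.05 ± 0.10, edgeR adjusted p = 1.17e-08). ABCC1, the main pump of glutathione conjugates in many cells, rose by 0.30 ± 0.05 from 97.4 ± 6.85 to 120 ± 4.01 CPM (edgeR adjusted p = 4.62e-05). ABCC5 rose by 0.36 ± 0.08 from 21.1 ± 1.31 to 27.2 ± 1.86 CPM (edgeR adjusted p = 0.000775). ACY1, whose aminoacylase removes the acetyl group of mercapturic acids, the end products of conjugation, fell from 29.9 ± 2.27 to 19.99 ± 1.11 CPM (-0.58 ± 0.08, edgeR adjusted p = 2.54e-06). The log2 fold change of ABCC3 was larger in size than that of any of the 10 transferase genes.

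**Figure D5:**
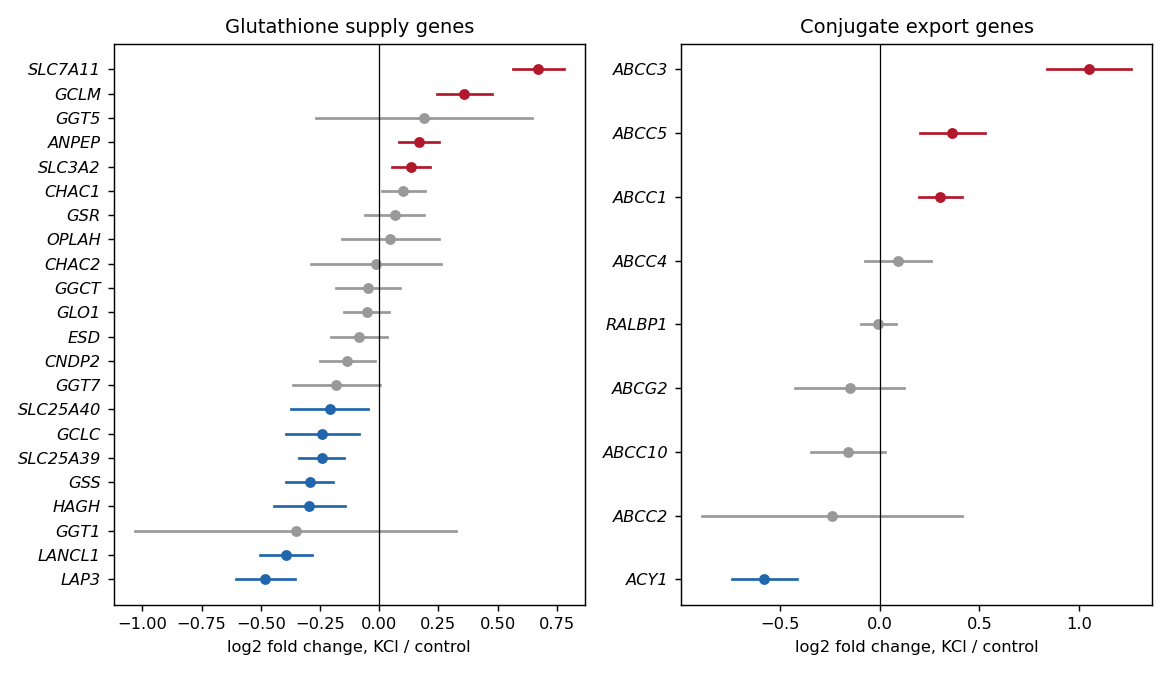
Log2 fold change, KCl over control (x axis), with the 95% interval of the edgeR fit, for the tested genes of glutathione supply (left, 22 genes) and conjugate export (right, 9 genes). Red marks genes called higher, blue genes called lower and grey those that did not pass, and ABCC3 stands farthest to the right at 1.05.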

How the data were processed

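Strand-specific mRNA libraries of AC16 cells were analysed from 1 deposited table, with GRCh38.p12 as genome build (submitters' processing notes). The sources used here do not give the aligner or the counter. The authors deposited estimated counts per gene without normalization, of which 11.3% to 11.9% in a library were not whole, and TPM and FPKM values scaled by gene length and library size. Columns were matched to control and KCl through the authors' group means. Estimated counts were rounded and tested with edgeR 4.0.16 (R 4.3.3), with TMM scaling, filterByExpr (minimum count 10, total 15) and a robust, two-sided quasi-likelihood F test, adjusted by Benjamini-Hochberg over 13044 genes at a threshold of 0.05. SE is the size of the log2 fold change divided by the square root of F, and intervals are 95%. The fit was tested on simulated data with known changes of 1.5-, 2- and 4-fold in 60, 74 and 66 genes. It recovered 80%, 93.2% and 100% of them, with 10 false calls among 13039 genes tested. Changes as small as those of the 10 members were not simulated. The changed genes were a far smaller share than the 38% called in the data, so these rates may not carry over.

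The members and gene lists were chosen with earlier results of these data known. All 10 members were named, with up to 4 called genes of smallest p per further list (the 1 with the smallest p where none passed) and a few fixed names. Alternatives included DESeq2 1.42.0 and limma 3.58.1. Positions and transcripts came from GENCODE release 29 on GRCh38, and promoters from RefSeq (GRCh38.p14).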

Additional observations from a re-analysis of the deposited data

How the results depend on the processing

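Over 17 alternatives, MGST1 stayed higher and GSTZ1 lower, both losing the call only against a fold change of 1.2 (glmTreat). Under glmTreat 0 members were higher and 0 lower, 1 glutathione supply gene was higher and 2 lower, 1 export gene was higher and 1 lower, and 661 genes were higher and 430 lower over the table. Leaving out 1 library gave 1 higher member each time and 1 to 3 lower members, 4 to 5 higher and 6 to 7 lower supply genes, 3 higher and 1 lower export genes, 0 to 1 higher and 0 to 1 lower among the other family genes, and 2183 to 2410 higher and 1878 to 2151 lower genes in all. Among those other family genes 1 was higher and 1 lower by limma on log2(TPM + 1) and on log2(TPM + 0.1), 2 were lower on log2(FPKM + 1) and 1 was lower by limma-voom. On log2(FPKM + 1), 2 supply genes were higher and 10 lower, and 1594 genes in all were higher and 3187 lower.

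As log2 fold changes with single libraries left out, GSTM2 ran from -0.18 to 0.056 (positive without control replicate 3), GSTM4 from -0.064 to 0.11 and GSTCD from -0.0011 to 0.059. GSTM4 turned to -0.0019 at a mean count of at least 50, -0.032 on log2(TPM + 1), -0.034 on log2(TPM + 0.1) and -0.058 on log2(FPKM + 1). The cause was not tested. With control replicate 3 and KCl replicate 2 both left out, an alternative chosen after seeing the data, 2 members were lower, GSTZ1 and GSTO1 in place of GSTZ1 and GSTK1, GSTM2 was at 0.020 and GSTCD at -0.0046. Same-numbered libraries showed no sign of deviating together (correlation -0.006 to 0.048, beside -0.059 to 0.068 for unlike numbers). With 3 libraries a group, this cannot tell whether the numbers pair the samples. With the replicate number as a block, 1 member was higher and 2 lower, as without it. The depth limits MGST2, with 35 to 47 reads a library, which gave no value at a mean count of at least 50.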
